A study of Mus musculus with 6 samples.

Results

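Genes of the cell division cycle were compared between the lungs of (AKR/J x FVB/NJ)F1 mice (AKR_F1 below) and (DBA/2J x FVB/NJ)F1 mice (DBA_F1 below). The set was a list of 42 genes of DNA replication and mitosis chosen by name. Each gene was read from platform probe sets annotated with its symbol alone, and the brightest of these by mean over the 6 arrays stood for the gene. In this way 41 of the 42 genes were measured, out of 18193 genes with such a probe set in all. Cyclin B1 (Ccnb1) had no probe set with a single symbol and has no value here. The samples were lungs of adult females with 3 Affymetrix arrays per cross and no treatment named in the labels other than Avertin anesthesia at euthanasia. Every animal carried 1 chromosome set from FVB/NJ, and the crosses differ in the set from the other inbred parent, AKR/J or DBA/2J. The tissue was snap frozen, and the labels say neither which strain was the mother nor whether each array is a separate animal. P-values therefore measure only the spread between these samples, which may be technical. The alveolar and airway genes were high on all 6 arrays: surfactant protein C (Sftpc) read 14.31, 14.34 and 14.31 in AKR_F1, against 14.34, 14.30 and 14.26 in DBA_F1. Not all lung markers were level: surfactant protein B (Sftpb) was higher in AKR_F1 by 0.32 log2 and passed the test described below (limma adjusted p = 0.0371). The log2 differences, AKR_F1 minus DBA_F1, of Ager (0.17), Sftpa1 (0.19), Aqp5 (0.27) and the endothelial receptor gene Kdr (0.38) did not pass it. Neither did that of the airway gene Scgb1a1, which had the opposite sign (-0.06). The endothelial genes Cldn5 (0.23), Cdh5 (0.20), Tie1 (0.11) and Pecam1 (0.09) had smaller differences than Kdr and did not pass it either.

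Before a cell copies its DNA, it loads the MCM helicase onto origins (licensing), then fires the origins, and it makes deoxynucleotides while forks move. Cyclin B with Cdk1 then drives mitosis, the spindle checkpoint holds it until chromosomes are attached, and the anaphase-promoting complex with Cdc20 ends it. E2F factors switch on replication genes in late G1, while the MuvB complex with B-Myb and FoxM1 switches on mitosis genes in G2 through a short promoter element named the CHR (cell cycle genes homology region). Most cells of adult lung are quiescent, so in whole lung many of these transcripts can come from a minority of dividing cells. Among such cells, lymphocytes and their precursors, epithelial progenitors and macrophages can be found. Which cells gave the signals here was not tested. Signals here are log2 values of whole-tissue RNA, in which more cells of a type and more RNA per cell cannot be told apart.

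In the group comparison no member passed the test. Of the 41 measured members, 32 lay above the filter on dim probe sets (mean log2 signal over 4.72) and were tested, and 9 lay below it. By limma's moderated test with Benjamini-Hochberg adjustment over 27022 probe sets, 0 of the 32 were called at an adjusted p under 0.05, against 2.48% of all 13202 tested genes. Over all their probe sets, 0 of 56 tested were called, against 2.62% of all tested probe sets. At an unadjusted p under 0.05 there were 4 of 32 members (12.5%), against 19.1% of all tested genes. The lowest adjusted p was 0.0769, for Pcna. The median log2 difference, AKR_F1 minus DBA_F1, was 0.09 over the 32 tested members and 0.02 over all tested genes. The groups did not overlap, with AKR_F1 higher, in 5 of 32 tested members (15.6%), close to the 14.2% of all tested genes, and in 0 of 32 with DBA_F1 higher, against 10% of all tested genes. The mean was higher in AKR_F1 for 26 of the 32 members (81.3%), against 55.1% of all tested genes.

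AKR_F1 replicate 3 carried the highest member signals. It held the highest of the 6 values for 25 of 32 tested members (78.1%), against 13.7% of all tested genes. The other arrays led for 0 to 2 members each. Birc5 passed the filter through AKR_F1 only, and of the 31 members whose mean passed it in both groups AKR_F1 replicate 3 led for 24 (77.4%). AKR_F1 replicate 3 lay above the mean of AKR_F1 replicates 1 and 2 for 30 of the 32 members, with a median excess of 0.26 log2, whereas 41% of all tested genes did so and their median was -0.03. Without AKR_F1 replicate 3, the mean of AKR_F1 replicates 1 and 2 was above the DBA_F1 mean for 17 of 32 members (53.1%), against 56.3% of all tested genes. In that comparison the median difference was 0.02 over the members and 0.02 over all tested genes. By limma 0 members were called there, while 4.33% of all tested probe sets were. The members also spread more among the AKR_F1 arrays than other genes, with a median SD of 0.17 in AKR_F1 and 0.12 in DBA_F1, against 0.08 and 0.09 for all tested genes.

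**Figure D1:**
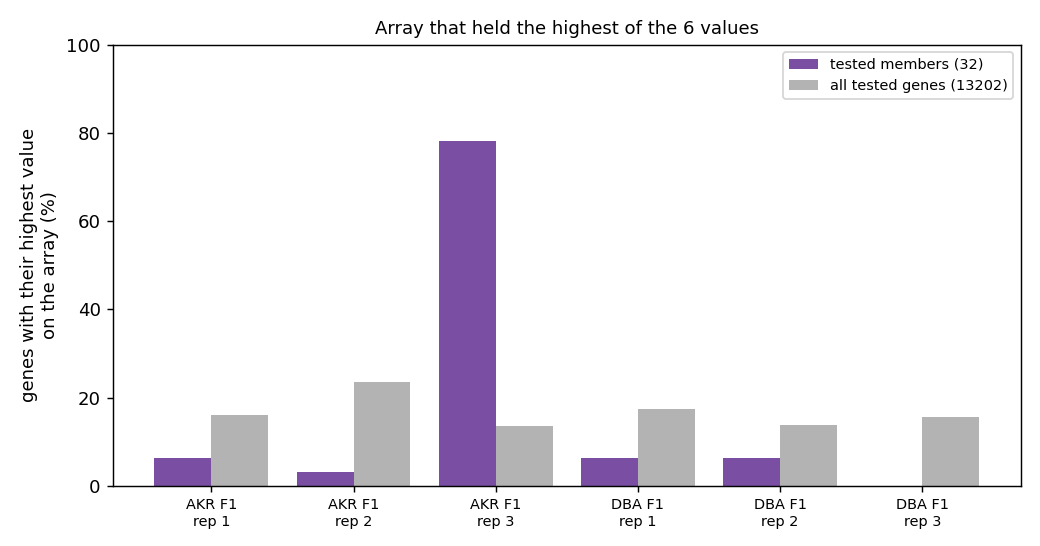
Share of genes whose highest value of the 6 lay on each array (bars, %), for the 32 tested members (purple) and all 13202 tested genes (grey). The bar of the members on AKR_F1 replicate 3 reaches 78.1%, against 13.7% for all tested genes.

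AKR_F1 replicate 3 also stood apart from its group over all probe sets other than controls. Its correlations were 0.9896 and 0.9900 with AKR_F1 replicates 1 and 2, and 0.9922 to 0.9929 with the DBA_F1 arrays. AKR_F1 replicates 1 and 2 correlated with each other at 0.9968. The AKR_F1 arrays differed among themselves in markers of other tissues and cells. Squamous epithelium markers had a mean log2 signal of 4.79, 4.79 and 9.42 on AKR_F1 replicates 1 to 3, against 9.10, 9.72 and 8.91 on DBA_F1 replicates 1 to 3. Skeletal muscle markers had means of 5.69, 5.07 and 10.02 in AKR_F1, against 9.52, 10.01 and 9.51 in DBA_F1. Both lists were thus lower on AKR_F1 replicates 1 and 2 than on any other array. The mean of AKR_F1 replicates 1 and 2 was above the DBA_F1 mean for 0 of 7 squamous and 0 of 6 muscle markers. For the tested members this was 17 of 32. AKR_F1 replicate 3 was above that mean of AKR_F1 replicates 1 and 2 for all 7 and all 6 markers, and for 30 of 32 members. The 8 thymocyte markers (genes of developing T cells) had means of 6.24, 5.39 and 7.26 in AKR_F1, against 5.21, 5.29 and 5.19 in DBA_F1. Each of the 8 had its highest value on AKR_F1 replicate 3. The recombinase gene Rag1, used by lymphocyte precursors, read 6.51, 3.08 and 8.55 in AKR_F1, against 3.0, 2.84 and 2.90 in DBA_F1. It lay under the filter value on AKR_F1 replicate 2 and all DBA_F1 arrays and well above it on AKR_F1 replicates 1 and 3. Terminal transferase (Dntt) read 5.86, 4.79 and 7.83, against 4.38, 4.58 and 4.59. The T cell coreceptor Cd8a read 6.43, 5.70 and 7.90, against 5.38, 5.67 and 5.27. The pre-T receptor gene Ptcra stayed dim on every array, at 3.97, 3.88 and 4.04 in AKR_F1, against 3.79, 3.62 and 3.73 in DBA_F1. Of the 8 markers 6 were tested and by limma 0 were called, against 2.48% of all tested genes. At an unadjusted p under 0.05 there were 4 of 6 (66.7%), against 19.1% of all tested genes. Dntt, one of these 4, passed the filter through AKR_F1 only, so its place in the count is a description. B cell markers had means of 7.09, 7.5 and 7.62 in AKR_F1, against 7.52, 7.33 and 7.20 in DBA_F1, and 3 of the 5 were highest on AKR_F1 replicate 3. Alveolar macrophage markers had means of 8.95, 8.70 and 9.08, against 8.57, 9.22 and 8.70, and 1 of 4 was highest on that array. Erythroid markers had means of 6.15, 6.02 and 5.94, against 5.82, 6.16 and 6.30, and 0 of 5 were highest there. Adipocyte markers had means of 7.77, 6.80 and 6.50 in AKR_F1, against 9.12, 9.69 and 8.54 in DBA_F1, and 4 of 5 fell by the test, Lep among them having passed the filter through DBA_F1 only. The part of any of these cells in the member signals was not tested.

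**Figure D2:**
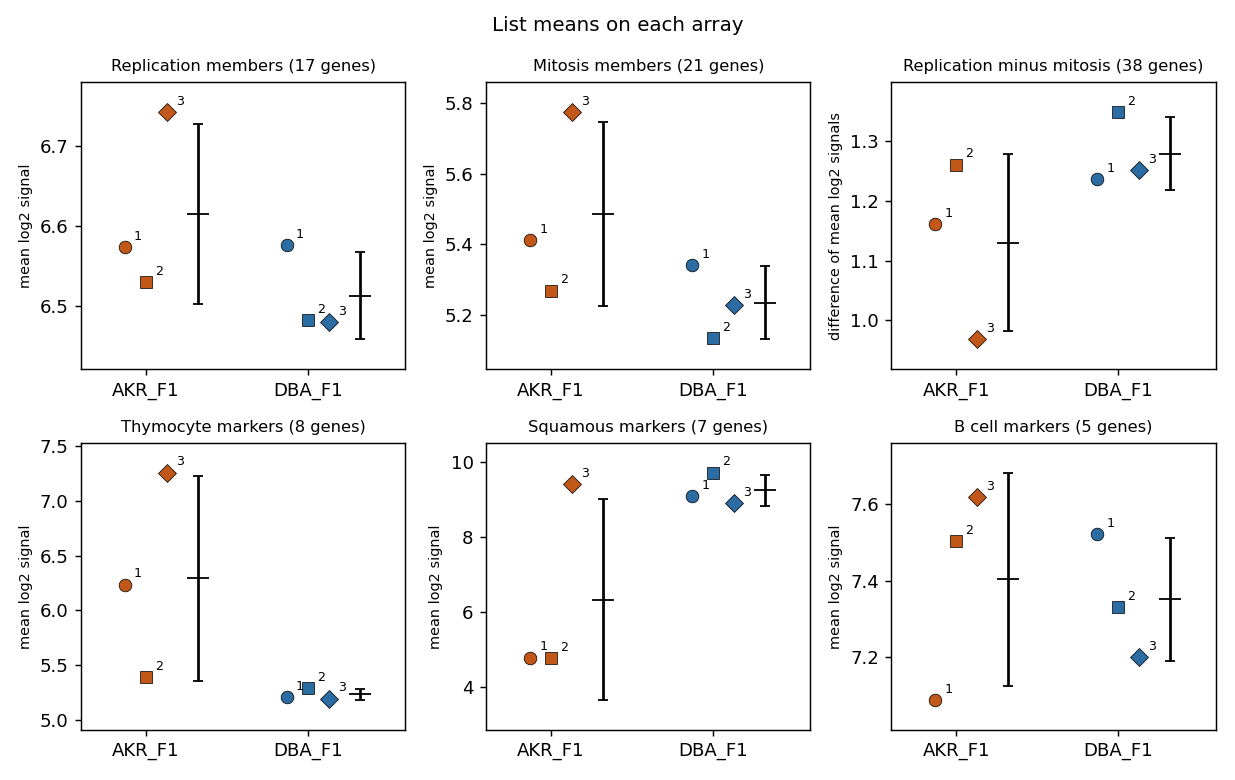
Mean log2 signal of each gene list on every array (numbered points, replicates 1 to 3), with the group mean and SD (n = 3) beside them, for AKR_F1 (orange) and DBA_F1 (blue). AKR_F1 replicate 3 is the highest array for the replication, mitosis and thymocyte lists, at 6.74, 5.77 and 7.26, and the lowest for replication minus mitosis, at 0.97.

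The 42 genes were split by role into 17 replication genes, 22 mitosis genes (21 of them measured) and 3 regulators. The mean over the replication members was 6.57, 6.53 and 6.74 on AKR_F1 replicates 1 to 3, against 6.58, 6.48 and 6.48 on DBA_F1 replicates 1 to 3. The difference of the group means was 0.10, about the size of the AKR_F1 SD of 0.11 (DBA_F1 SD 0.05, n = 3 each). The mean over the mitosis members was 5.41, 5.27 and 5.77 in AKR_F1, against 5.34, 5.13 and 5.23 in DBA_F1. Here the difference was 0.25, with an SD of 0.26 in AKR_F1 and 0.10 in DBA_F1. Both lists had overlapping groups and both were highest on AKR_F1 replicate 3. Replication minus mitosis was 1.16, 1.26 and 0.97 in AKR_F1, against 1.24, 1.35 and 1.25 in DBA_F1, a difference of -0.15 (SD 0.15 and 0.06, n = 3 each). The excess of the mitosis list was larger on AKR_F1 replicate 3 than that of the replication list. Without that array the 3 differences were 0.04 for replication, 0.11 for mitosis and -0.07 for replication minus mitosis. With AKR_F1 replicate 3 set by itself against the DBA_F1 mean, the values were 0.23, 0.54 and -0.31.

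Promoter letters differed between replication and mitosis genes. The choice of members did not use them, but the CHR and E2F letters are those of the factors named above for each class. The split is therefore a description and not an independent result. RefSeq windows of the GRCm38.p6 build, from 250 bases before to 50 after each start, were found for 13 replication, 19 mitosis and 2 regulator genes, or 34 of 42, with Ccnb1 among them. Searched on both strands were the CHR letters (TTTGAA or TTCGAA), the CCAAT box and E2F letters (TTTCGCGC, TTTGGCGC, TTTCCCGC or TTCCCGCC, of which the last pair can overlap in 1 site). CHR letters were in 3 of 13 replication windows (23.1%) and in 14 of 19 mitosis windows (73.7%), against 21.7% of 27025 genes. E2F letters were in 7 of 13 replication windows (53.8%) and in 1 of 19 mitosis windows (5.26%), against 4% of all genes. CCAAT was in 9 of 13 (69.2%) and 15 of 19 (78.9%), against 41.1% of all genes. CHR and CCAAT together were in 3 of 13 and 13 of 19 windows, against 9.65% of all genes. A match is a description of the letters and not a binding site.

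**Figure D3:**
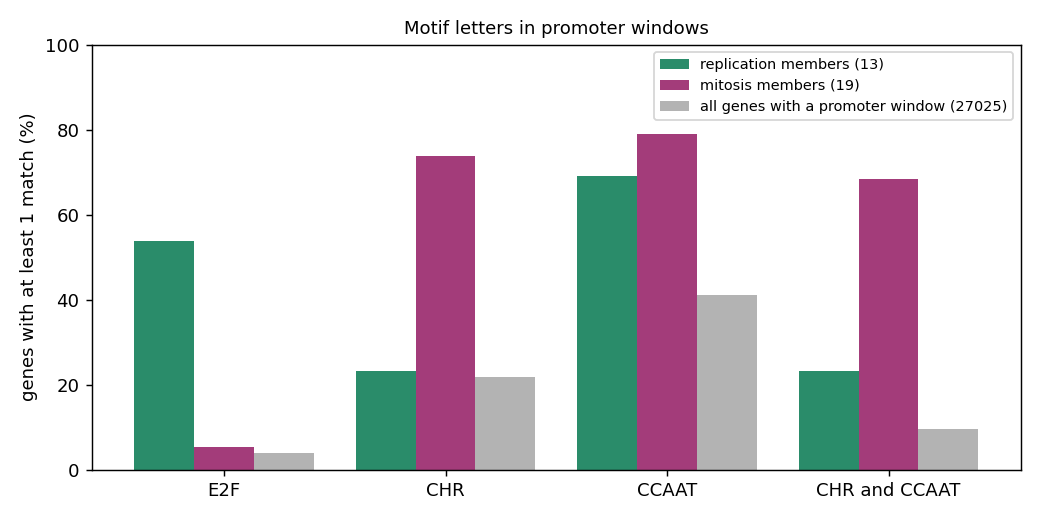
Share of genes with at least 1 match in the promoter window (bars, %) for replication members (green), mitosis members (magenta) and all genes with a window (grey). E2F letters reach 53.8% in replication genes and 5.26% in mitosis genes, and CHR letters 23.1% and 73.7%.

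The 200 bases before the start are printed for 6 mitosis genes and 2 replication genes that the results below turn on, and for Mcm6 as an example with E2F letters, 5′ to 3′ in the direction of the gene, to show how the letters are arranged. Capitals mark CHR, CCAAT or E2F letters on either strand, so that ATTGG is CCAAT and TTCAAA is TTTGAA read from the other strand. The windows are Top2a at chr11:99024190-99024389 (minus strand), Mki67 at chr7:135716380-135716579 (minus strand), Ccnb2 at chr9:70421555-70421754 (minus strand), Bub1 at chr2:127831860-127832059 (minus strand), Plk1 at chr7:122159235-122159434 (plus strand), Birc5 at chr11:117849037-117849236 (plus strand), Rrm2 at chr12:24708054-24708253 (plus strand), Pcna at chr2:132253181-132253380 (minus strand) and Mcm6 at chr1:128359706-128359905 (minus strand). Those of the mitosis genes come first.
Top2a: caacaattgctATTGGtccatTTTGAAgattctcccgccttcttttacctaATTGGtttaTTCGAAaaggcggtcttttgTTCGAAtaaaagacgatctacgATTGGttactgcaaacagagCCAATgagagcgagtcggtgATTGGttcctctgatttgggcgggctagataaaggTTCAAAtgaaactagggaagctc
Mki67: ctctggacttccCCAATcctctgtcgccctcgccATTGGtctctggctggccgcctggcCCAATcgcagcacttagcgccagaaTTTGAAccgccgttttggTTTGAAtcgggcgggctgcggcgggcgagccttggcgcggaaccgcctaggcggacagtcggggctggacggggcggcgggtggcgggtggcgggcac
Ccnb2: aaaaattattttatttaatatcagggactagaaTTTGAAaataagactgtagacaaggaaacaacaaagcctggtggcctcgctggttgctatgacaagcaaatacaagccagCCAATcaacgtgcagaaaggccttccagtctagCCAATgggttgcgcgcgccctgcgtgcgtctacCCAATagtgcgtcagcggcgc
Bub1: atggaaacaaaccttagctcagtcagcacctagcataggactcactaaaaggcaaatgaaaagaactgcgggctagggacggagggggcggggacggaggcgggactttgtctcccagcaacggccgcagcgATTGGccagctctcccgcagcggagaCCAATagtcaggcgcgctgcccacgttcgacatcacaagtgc
Plk1: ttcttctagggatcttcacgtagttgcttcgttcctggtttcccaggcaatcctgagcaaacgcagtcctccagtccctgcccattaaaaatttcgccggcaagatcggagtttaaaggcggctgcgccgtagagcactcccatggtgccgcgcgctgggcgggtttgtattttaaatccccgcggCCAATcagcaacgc
Birc5: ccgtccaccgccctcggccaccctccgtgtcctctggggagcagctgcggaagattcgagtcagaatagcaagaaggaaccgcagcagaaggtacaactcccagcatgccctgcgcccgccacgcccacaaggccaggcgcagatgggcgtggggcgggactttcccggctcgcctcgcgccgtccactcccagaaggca
The replication genes Rrm2, Pcna and Mcm6 follow.
Rrm2: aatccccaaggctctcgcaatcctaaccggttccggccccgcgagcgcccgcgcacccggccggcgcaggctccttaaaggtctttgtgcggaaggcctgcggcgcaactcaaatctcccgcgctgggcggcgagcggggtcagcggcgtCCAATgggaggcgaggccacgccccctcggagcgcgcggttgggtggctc
Pcna: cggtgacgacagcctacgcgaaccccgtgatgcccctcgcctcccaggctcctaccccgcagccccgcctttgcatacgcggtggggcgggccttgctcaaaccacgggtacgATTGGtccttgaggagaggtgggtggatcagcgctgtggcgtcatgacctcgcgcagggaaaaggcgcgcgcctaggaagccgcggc
Mcm6: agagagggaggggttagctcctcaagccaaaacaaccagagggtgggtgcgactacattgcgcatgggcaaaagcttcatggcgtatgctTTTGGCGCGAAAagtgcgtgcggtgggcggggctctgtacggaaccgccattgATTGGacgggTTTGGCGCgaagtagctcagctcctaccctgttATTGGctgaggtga
The Top2a window holds 5 CCAAT boxes and 4 CHR matches, and that of Mki67 holds 3 and 2. Ccnb2 has 3 CCAAT boxes and 1 CHR match. Bub1 has 2 CCAAT boxes, Plk1 has 1, and neither has CHR letters in the 200 bases printed. In the full window of 300 bases that was searched, Bub1 and Plk1 each have 1 CHR match and Ccnb2 has 2. Birc5 has none of the letters searched. Rrm2 and Pcna each hold 1 CCAAT box and none of the E2F letters searched. Mcm6 holds 3 E2F matches, of which 2 overlap on opposite strands, and 2 CCAAT boxes.

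**Figure D4:**
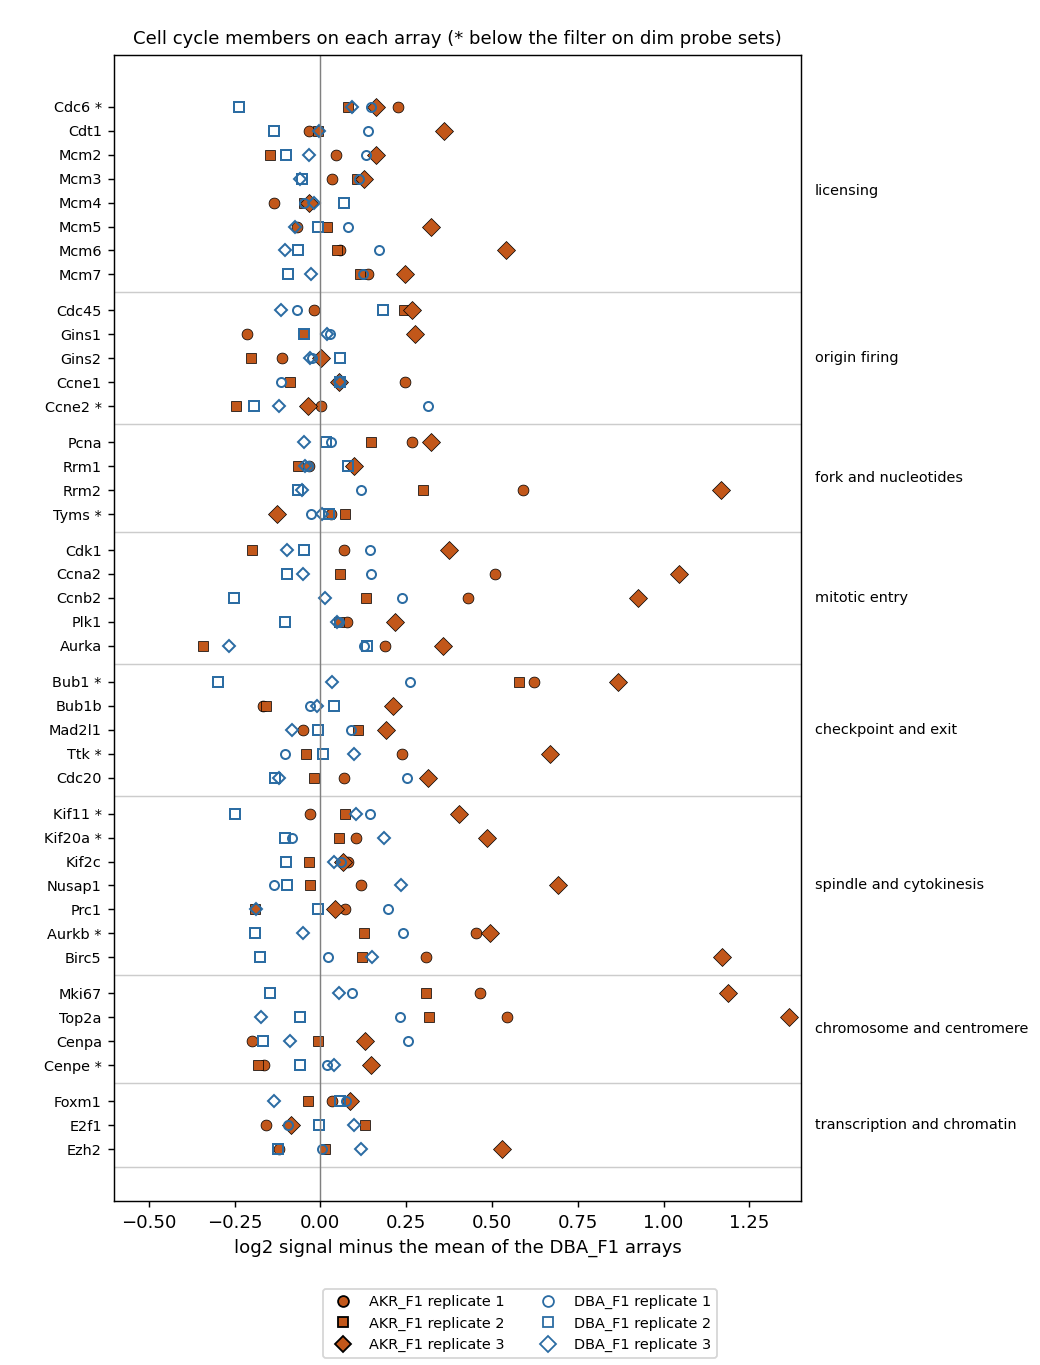
Each measured member on each array, as log2 signal minus the mean of the DBA_F1 arrays (x axis), for AKR_F1 (filled orange) and DBA_F1 (open blue), with replicates as circle, square and diamond and an asterisk for members below the filter. AKR_F1 replicate 3 (orange diamond) lies farthest right for 31 of the 41 members, up to 1.37 above the DBA_F1 mean for Top2a.

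No licensing gene was called. The helicase subunit Mcm7, the brightest of the group, read 8.94, 8.92 and 9.05 in AKR_F1, against 8.93, 8.71 and 8.78 in DBA_F1 (difference 0.17 ± 0.07 SE, limma adjusted p = 0.272). AKR_F1 replicate 1 and DBA_F1 replicate 1 were nearly level, and the groups overlapped at AKR_F1 replicate 2. Its 3 other tested probe sets differed by -0.02 to 0.10. Mcm6, with its E2F letters shown above, read 7.36, 7.35 and 7.85 in AKR_F1, against 7.47, 7.24 and 7.20 in DBA_F1 (0.21 ± 0.15). Only AKR_F1 replicate 3 stood above all DBA_F1 arrays. The other tested probe set of Mcm6 differed by 0.00 ± 0.18. The loading factor Cdt1 had a difference of 0.11, Mcm5 0.09, Mcm3 0.09, Mcm2 0.02 and Mcm4 -0.07, with SEs of 0.06 to 0.12. The other tested probe set of Mcm2 differed by 0.20 ± 0.08 (limma adjusted p = 0.244), and those of Mcm3 by 0.07 to 0.20. Those of Cdt1, Mcm5 and Mcm4 differed by 0.19, 0.04 and -0.06. Cdt1 and Mcm5 also had AKR_F1 replicate 3 at the top (8.04 and 7.71), with AKR_F1 replicates 1 and 2 inside the range of DBA_F1 (7.65 and 7.68 for Cdt1). The loading ATPase Cdc6 lay below the filter, at 4.79, 4.64 and 4.73 in AKR_F1, against 4.71, 4.33 and 4.66 in DBA_F1.

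Origin-firing genes showed no common direction. The helicase cofactor Cdc45 read 5.20, 5.46 and 5.48 in AKR_F1, against 5.15, 5.40 and 5.10 in DBA_F1 (0.16 ± 0.12, limma adjusted p = 0.512), with overlapping groups. The GINS subunits Gins1 and Gins2 had differences of 0.00 and -0.10. Cyclin E1 (Ccne1), which activates Cdk2 at the start of S phase, had 0.07 by its brightest probe set and -0.24 by its other tested one. Cyclin E2 (Ccne2) lay below the filter, at 3.37, 3.13 and 3.34 in AKR_F1, against 3.69, 3.18 and 3.25 in DBA_F1.

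Among the genes of the fork and of nucleotide supply, Pcna and Rrm2 separated the groups. Pcna, the sliding clamp of DNA polymerases, read 10.99, 10.87 and 11.05 in AKR_F1, against 10.75, 10.74 and 10.68 in DBA_F1. All 3 AKR_F1 arrays were above all 3 DBA_F1 arrays. The difference was 0.25 ± 0.06 SE (1.19-fold, limma adjusted p = 0.0769), and it was 0.21 without AKR_F1 replicate 3 (adjusted p = 0.11). Rrm2, the small subunit of ribonucleotide reductase that is made in S phase, read 6.60, 6.31 and 7.18 in AKR_F1, against 6.13, 5.95 and 5.96 in DBA_F1. Its groups did not overlap either, and AKR_F1 replicate 3 stood well above the rest. The difference was 0.69 ± 0.21 (1.61-fold, adjusted p = 0.149). It was 0.44 ± 0.12 without AKR_F1 replicate 3 (adjusted p = 0.0988). The other 2 tested probe sets of Rrm2 differed by 0.35 and 0.45. The large subunit Rrm1 had a difference of 0.00 ± 0.07, with AKR_F1 at 7.77, 7.74 and 7.90 and DBA_F1 at 7.77, 7.89 and 7.76. Its other tested probe set differed by 0.10 ± 0.09. Thymidylate synthase (Tyms) lay below the filter on every array, at 3.41, 3.45 and 3.25 in AKR_F1, against 3.35, 3.40 and 3.38 in DBA_F1.

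Genes of mitotic entry followed AKR_F1 replicate 3 to different degrees. The kinase Cdk1 read 6.31, 6.04 and 6.62 in AKR_F1, against 6.39, 6.19 and 6.14 in DBA_F1 (0.08 ± 0.15), and its groups overlapped. Cyclin A2 (Ccna2) read 6.13, 5.68 and 6.66, against 5.77, 5.52 and 5.57 (0.54 ± 0.23, limma adjusted p = 0.277). A further probe set of Ccna2 had 0.23 ± 0.22 (adjusted p = 0.642), and there AKR_F1 replicate 2 was the lowest of the 6 arrays. Cyclin B2 (Ccnb2) read 5.93, 5.63 and 6.42, against 5.73, 5.25 and 5.51 (0.50 ± 0.21, adjusted p = 0.277). By the brightest probe sets of both cyclins, AKR_F1 replicates 1 and 3 were above every DBA_F1 array and AKR_F1 replicate 2 was not. These 2 genes, together with Birc5, Mcm6, Rrm1 and Foxm1, were given in full after their values were seen. The kinase Plk1, whose groups did not overlap, read 5.37, 5.35 and 5.51 in AKR_F1, against 5.35, 5.19 and 5.34 in DBA_F1 (0.12 ± 0.09, adjusted p = 0.52), and its lowest AKR_F1 and highest DBA_F1 values were nearly equal. The spindle pole kinase Aurka read 5.20, 4.67 and 5.37, against 5.14, 5.15 and 4.74 (0.07 ± 0.20), with AKR_F1 replicate 2 the lowest of all 6.

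Spindle checkpoint and exit genes had differences of -0.04 to 0.69, the highest for Bub1. Cdc20, the activator of the anaphase-promoting complex, read 7.02, 6.93 and 7.26 in AKR_F1, against 7.20, 6.81 and 6.82 in DBA_F1 (0.12 ± 0.13), with overlapping groups. The checkpoint kinase Bub1 lay below the filter by its mean and was not tested. It read 4.64, 4.59 and 4.89 in AKR_F1, against 4.28, 3.72 and 4.05 in DBA_F1, a difference of 0.69, with no overlap. Without AKR_F1 replicate 3 the difference was 0.60. Its relative Bub1b (BubR1) had -0.04 ± 0.12 by the brightest probe set and 0.47 ± 0.11 by another (adjusted p = 0.0793). That second probe set passed the filter through AKR_F1 only (mean 5.06, against 4.59 in DBA_F1). Mad2l1, which blocks Cdc20 at the checkpoint, had 0.08 ± 0.09. The kinase Ttk (Mps1), below the filter, read 3.94, 3.66 and 4.37 in AKR_F1, against 3.60, 3.71 and 3.80 in DBA_F1, highest on AKR_F1 replicate 3.

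Of the 7 spindle and cytokinesis genes, 5 were highest on AKR_F1 replicate 3. Nusap1, a microtubule-bundling protein, was the brightest and read 5.97, 5.82 and 6.55 in AKR_F1, against 5.72, 5.76 and 6.09 in DBA_F1 (0.26 ± 0.20, limma adjusted p = 0.536). Survivin (Birc5), which targets the chromosomal passenger complex, read 4.85, 4.66 and 5.71 in AKR_F1, against 4.56, 4.37 and 4.69 in DBA_F1 (0.53 ± 0.26). Its AKR_F1 replicate 3 value was 1.17 above the DBA_F1 mean, while AKR_F1 replicate 2 lay inside the DBA_F1 range. Birc5 passed the filter through AKR_F1 only (mean 5.07, against 4.54 in DBA_F1), so its difference and its place in the counts above are a description. The kinesin Kif2c, which depolymerises microtubules, had 0.04 by its brightest probe set, and the midzone protein Prc1 had -0.02. Another probe set of Kif2c differed by 0.28 ± 0.12 (adjusted p = 0.278) with no overlap, and it passed the filter through AKR_F1 only. The passenger kinase Aurkb and the kinesins Kif11 and Kif20a lay below the filter. Kif20a read 3.57, 3.52 and 3.95 in AKR_F1, against 3.38, 3.37 and 3.65 in DBA_F1, again highest on AKR_F1 replicate 3. The differences of Aurkb and Kif11 were 0.36 and 0.15.

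The proliferation antigen Mki67 and topoisomerase Top2a, both on chromosomes in mitosis, had the largest differences of any tested mitosis members. Mki67 read 6.78, 6.62 and 7.5 in AKR_F1, against 6.41, 6.16 and 6.37 in DBA_F1. Every AKR_F1 array was above every DBA_F1 array. The difference was 0.65 ± 0.22 SE (1.57-fold, limma adjusted p = 0.185). It was 0.39 ± 0.10 without AKR_F1 replicate 3 (adjusted p = 0.106) and 1.19 for that array alone (adjusted p = 0.0547, with the spread taken from DBA_F1). Top2a, which untangles replicated DNA and whose promoter has the most CHR and CCAAT letters of those shown, read 6.42, 6.20 and 7.25 in AKR_F1, against 6.11, 5.82 and 5.71 in DBA_F1. Its groups did not overlap. The difference was 0.74 ± 0.26 (1.67-fold, adjusted p = 0.206), and 0.43 ± 0.14 without AKR_F1 replicate 3 (adjusted p = 0.164). With each array left out in turn, the adjusted p stayed between 0.0859 and 0.257 for Pcna, 0.0988 and 0.369 for Rrm2, 0.106 and 0.435 for Mki67, and 0.164 and 0.44 for Top2a. The other tested probe set of Top2a differed by -0.03, with values of 4.86 to 4.88 in AKR_F1. The centromeric histone Cenpa had -0.03 ± 0.14. The centromere motor Cenpe, below the filter, read 4.01, 3.99 and 4.32 in AKR_F1, against 4.19, 4.11 and 4.21 in DBA_F1.

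AKR_F1 replicate 3 was highest, then AKR_F1 replicate 1, then AKR_F1 replicate 2, then all DBA_F1 arrays, in 5 of 32 tested members (Pcna, Rrm2, Plk1, Mki67 and Top2a) and in Bub1. The same order of arrays was found in 1.42% of all tested genes and in 5 of the 8 thymocyte markers. Of these 5, Rag1 and Ptcra lay below the filter and Dntt passed it through AKR_F1 only. Among the other tested thymocyte markers, Cd8a and Cd8b1 held the order, and Rag2, Cd4 and Cd3e did not. The order was looked for after the values were seen. The part of thymocyte RNA in the member signals was not tested.

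**Figure D5:**
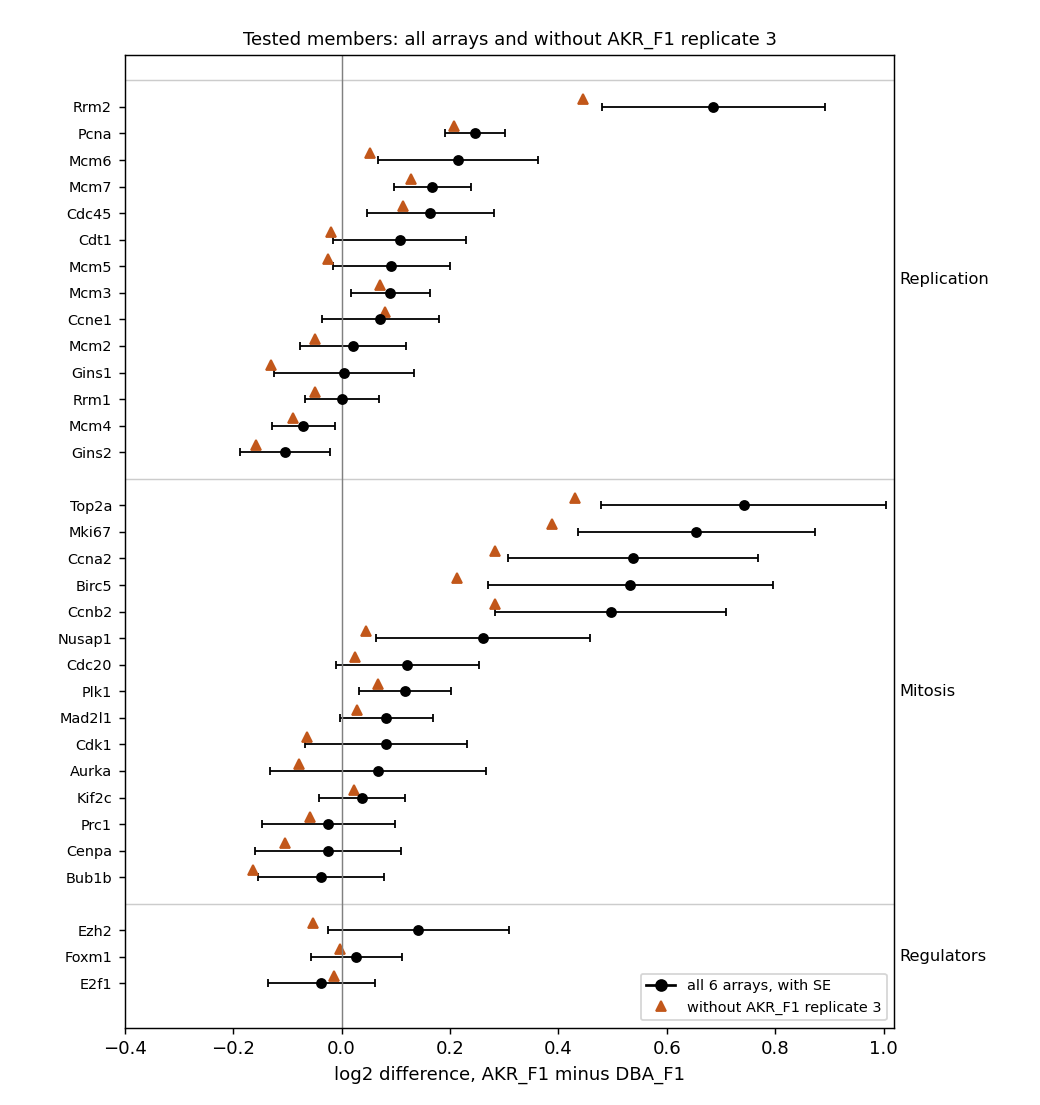
Log2 difference, AKR_F1 minus DBA_F1, of the 32 tested members (black points with moderated SE, all arrays) and the same without AKR_F1 replicate 3 (orange triangles), sorted within each class. Top2a is at 0.43 without that array and at 0.74 with all arrays.

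None of the 3 regulators was called. E2f1, the factor that drives replication genes, read 5.70, 5.99 and 5.78 in AKR_F1, against 5.77, 5.86 and 5.96 in DBA_F1 (-0.04 ± 0.10, limma adjusted p = 0.881). Foxm1, the factor of mitosis genes, read 6.14, 6.07 and 6.20, against 6.18, 6.17 and 5.97 (0.03 ± 0.08). Ezh2, the histone H3 methyltransferase of Polycomb complex PRC2 and an E2F target, read 6.80, 6.93 and 7.45, against 6.92, 6.79 and 7.04 (0.14 ± 0.17). Ezh2 was well above its other values on AKR_F1 replicate 3, and all 3 genes had overlapping groups.

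Other genes of the same pathways, listed by role and not for their values, were also not called. Of 103 listed, 100 were measured and 85 tested, and by limma 0 were called, against the 2.48% of all tested genes. At an unadjusted p under 0.05 there were 10 of 85 (11.8%), against 19.1% of all tested genes. The median difference over the 100 measured genes was 0.05. Among 28 other replication genes, 14 (50%) had their highest value on AKR_F1 replicate 3, against 13.7% of all tested genes. So did 19 of 36 other mitosis genes (52.8%), a list with 10 genes below the filter. Of these mitosis genes Cenpf, Tpx2 and Cdca3 passed the filter through AKR_F1 only. The hemimethylated DNA reader Uhrf1 read 4.86, 5.0 and 5.73 in AKR_F1, against 5.17, 4.76 and 4.59 in DBA_F1 (0.35 ± 0.25), and the histone mRNA-binding Slbp differed by 0.20 ± 0.06 (adjusted p = 0.15). The kinetochore subunit Spc25 differed by 0.40 ± 0.14 (adjusted p = 0.207) and the kinesin Kif22 by 0.34 ± 0.09 (adjusted p = 0.115), both without overlap between the groups.

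Genes that govern the choice between division and rest were also counted by the array of their highest value. This was AKR_F1 replicate 3 for 1 of 8 G1 cyclins and kinases (12.5%) and 2 of 10 Cdk inhibitors and arrest genes (20%). For the Rb, E2F and DREAM genes it was 5 of 18 (27.8%), against 13.7% of all tested genes. The inhibitor and DREAM lists include genes below the filter. Cyclin D2 (Ccnd2) read 10.25, 10.15 and 10.17 in AKR_F1, against 10.08, 9.87 and 9.75 in DBA_F1 (0.29 ± 0.08, limma adjusted p = 0.14). It was called without DBA_F1 replicate 1 (0.38, adjusted p = 0.0436), and over all alternatives its adjusted p ran up to 0.646. Myc differed by -0.24 ± 0.14. The Cdk inhibitor Cdkn1a (p21) read 8.38, 8.76 and 8.87 in AKR_F1, against 8.62, 9.37 and 9.34 in DBA_F1 (-0.44 ± 0.22, adjusted p = 0.342), with overlapping groups. Cdkn2b (p15) read 8.30, 8.30 and 8.08, against 7.95, 7.64 and 7.98 (0.37 ± 0.11, adjusted p = 0.149), with no overlap. The DREAM subunit Lin37 differed by -0.19 ± 0.07, and E2f2 by 0.16 ± 0.09. By their brightest probe sets and with all 6 arrays none of these genes passed the threshold, which does not show that the groups are alike. The most variable probe set of E2f2 was called (0.65, adjusted p = 0.0384).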

How the data were processed

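RNA of lung was extracted with Trizol and labelled by the standard Affymetrix protocol, per the labels' protocols. The deposited log2 values, 1 per probe set and array, were used as the authors gave them. Which of MAS5 and RMA, both listed in the submitters' processing notes, made the table is not given in the sources used here. Array medians lay between 5.46 and 5.49, so no further scaling was applied. Of the probe sets, 64 controls were left out and 45037 kept: 34945 had 1 symbol in the platform annotation, 932 several and 9160 none. The lowest 40% by mean over the 6 arrays (4.72 or less) were not tested, which left 27022.

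Groups were compared with limma 3.58.1 in R 4.3.3 (lmFit, eBayes with a trend, group as the only term, two-sided, Benjamini-Hochberg over all tested probe sets), AKR_F1 minus DBA_F1, with moderated SE. The fit was tested on simulated data, drawn independently around the mean of each probe set with no deviating array. It recovered 32 of 50 shifts of 0.5 log2 and 45 of 50 shifts of 1 log2, with 12 false among 189 calls. The simulation does not cover a group with an array such as AKR_F1 replicate 3. Members and lists were chosen with earlier results of these data known. Values on every array are given for members whose groups do not overlap and for the brightest and dimmest of each role, and for Ccna2, Ccnb2, Birc5, Mcm6, Rrm1 and Foxm1, chosen after their values were seen. The 2 largest differences among tested genes are given for each other list. Correlations of deviations between same-numbered arrays lay within the range of those between other-numbered arrays, which does not exclude pairing. No detection calls were used, so low signals have no stated background. Precision is limited by having 3 arrays per group. Alternatives were other scalings, filters, variance models, array weights, a replicate block, other probe sets of a gene, and arrays left out.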

Additional observations from a re-analysis of the deposited data

How the results depend on the processing

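The count of called members was 0 under every alternative run, and 381 of the 383 values of named genes under alternatives kept their side of the threshold. The exceptions were Ccnd2, called without DBA_F1 replicate 1, and E2f2, called by its most variable probe set. Called probe sets numbered 707 in all, from 198 to 1171 with 1 array left out (leaving out AKR_F1 replicate 1 gave 198, AKR_F1 replicate 2 gave 199, DBA_F1 replicate 2 gave 249 and AKR_F1 replicate 3 gave 1171), 1198 with array weights and 85 for AKR_F1 replicate 3 alone against DBA_F1. Other pathway genes called numbered 0 to 1 with 1 array left out and 2 by the most variable probe set. The replication difference ranged from 0.039 to 0.15 with 1 array left out and was 0.23 for AKR_F1 replicate 3 alone. The mitosis difference ranged from 0.11 to 0.36 and was 0.54 alone. Replication minus mitosis ranged from -0.21 to -0.068 and was -0.31 alone, -0.028 with the lowest 60% of probe sets left out (fewer genes averaged) and -0.083 without Ccna2, Mki67 and Top2a. With the median over members in place of the mean it was 0.14, the opposite sign: the plain median follows the probe set in the middle of the list. With values centred per gene first, added after the data were seen, the median was -0.13. With the replicate block 539 probe sets and 0 members were called. Correlations of deviations between same-numbered arrays were 0.21, -0.16 and -0.037, and those between other-numbered arrays ran from -0.18 to 0.23. With 3 arrays per group this check cannot exclude that the numbers pair the arrays.

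With a mean signal of 4.72 or less, no test was made for Cdc6, Ccne2, Tyms, Bub1, Ttk, Kif11, Kif20a, Aurkb and Cenpe.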

Other observations

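Probe sets of 2 further cell cycle genes disagreed. Securin (Pttg1), the inhibitor of separase, differed by 0.09 by its brightest probe set (limma adjusted p = 0.472). Its most variable one read 7.14, 7.36 and 7.43 in AKR_F1, against 7.92, 7.69 and 7.95 in DBA_F1 (-0.54 ± 0.10 SE, adjusted p = 0.0451). That probe set has AKR_F1 lower on every array. The activator E2f2 differed by 0.16 by its brightest probe set (adjusted p = 0.37), while its most variable one read 5.95, 5.83 and 6.0 in AKR_F1, against 5.28, 5.07 and 5.48 in DBA_F1 (0.65 ± 0.12, adjusted p = 0.0384). Its signal was even across the AKR_F1 arrays, unlike that of Mki67 or Rrm2. Among members with more than 1 tested probe set, the differences had the same sign in all of them for 13 of 18 genes. The exceptions were Bub1b, Ccne1, Cdc45, Mcm7 and Top2a. A probe set each of Bub1b and Kif2c had passed the filter through AKR_F1 only, so their signs add nothing to this count. These genes were named after their values were seen, and the reason for the disagreement was not tested.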
